A study of Mus musculus with 12 samples.

Results

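The ligands and receptors of the fibroblast growth factor (FGF) pathway were followed by name through the RNA-seq libraries of mouse eye organoids, namely the ligands Fgf3, Fgf4, Fgf8, Fgf9, Fgf15 and Fgf17 and the receptors Fgfr1, Fgfr2, Fgfr3 and Fgfr4. They are 10 of the 54232 genes counted, and all 10 were among the 17721 genes that passed the filter on low counts. The organoids were grown to day 7 from Rax-GFP embryonic stem cells (ESCs), a single mouse line that is heterozygous for a GFP knock-in at Rax, and every group carried that allele. The groups held 4 libraries each: LDHi+lactate, cultured with 20 µM GNE-140 and 25 mM sodium L-lactate, the lactate being given ahead of the inhibitor; LDHi, cultured with 20 µM GNE-140 for 3 days; and control, with neither. GNE-140 is a small-molecule inhibitor of lactate dehydrogenase, the enzyme that interconverts pyruvate and lactate. Replicates 1 and 2 of each group carry the cell type label "eye organoid" and are called set 1 here, and replicates 3 and 4 carry the label "retina progenitors" with eye organoid as the tissue and are called set 2. The study's methods describe the harvests as biologically independent experiments, all of them from the one ESC line.

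FGFs are secreted proteins that bind receptor tyrosine kinases together with heparan sulfate on the cell surface, and the receptors signal largely through the RAS to ERK kinase relay. The cells answer by transcribing ETS factors (Etv4, Etv5) and feedback inhibitors (the Sprouty and Spred genes). In the embryonic head FGF ligands from the anterior neural ridge, the midbrain-hindbrain boundary and the distal optic vesicle pattern the forebrain and favour neural retina over pigment epithelium, while in pluripotent cells FGF4 is the autocrine signal through which they become ready to differentiate.

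LDHi+lactate libraries held 29255114 to 42489921 counts, LDHi libraries 22174002 to 46881759 and control libraries 25209097 to 48271386. Set 2 was shallower (22174002 to 29919036) than set 1 (37284585 to 48271386). Levels are given as CPM, the counts scaled to a common library size after TMM scaling, and the floor of detection was taken as 3 counts. The tissue label was checked with 12 optic vesicle markers, of which none was at or under that floor throughout a group. Their summed level was 876 to 1260 CPM in LDHi+lactate, 679 to 750 CPM in LDHi and 987 to 1740 CPM in control libraries. Markers of pluripotent cells were also present in every library: the 8 genes of that list summed to 508 to 1120 CPM in LDHi+lactate, 599 to 1100 CPM in LDHi and 253 to 538 CPM in control. In such bulk samples, fewer cells of a type and less RNA per cell cannot be told apart.

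**Figure D1:**
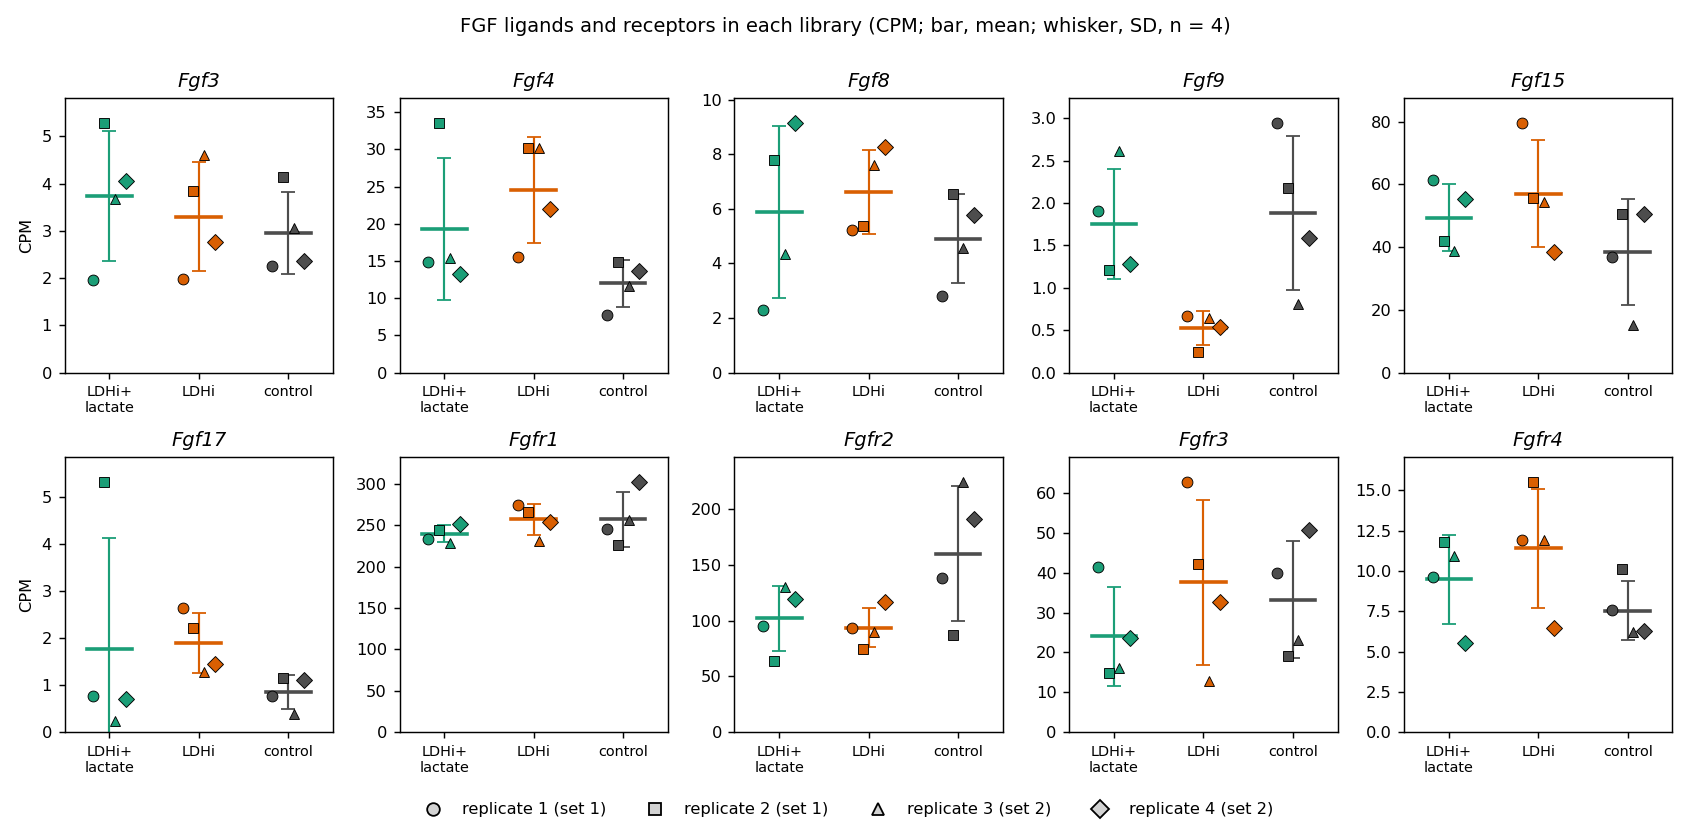
CPM of each FGF ligand and receptor (vertical axis, from 0) in the LDHi+lactate, LDHi and control libraries, with symbols for the replicate number, a bar for the mean and a whisker for the SD (n = 4; the lower whisker of Fgf17 in LDHi+lactate is clipped at 0). Fgf9 is lowest in the 4 LDHi libraries (0.237 to 0.672 CPM), Fgf4 is higher in all 4 LDHi libraries (15.5 to 30.2 CPM) than in any control library (7.74 to 14.9 CPM), and Fgfr1 stays between 226 and 302 CPM.

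The first comparison asked how blocking lactate dehydrogenase changed the FGF ligands and receptors. In LDHi organoids Fgf9 was below the level of every control library (0.523 ± 0.199 CPM in LDHi and 1.88 ± 0.907 CPM in control, SD, n = 4), Fgf4 was above that of every control library (24.5 ± 7.13 CPM in LDHi and 12.0 ± 3.15 CPM in control, SD, n = 4), the receptor transcript Fgfr2 was lower and Fgfr4 higher in each replicate, while Fgfr1 had the same mean in both groups. By edgeR's quasi-likelihood test (adjusted p under 0.05, Benjamini-Hochberg over all 17721 genes), 1 of the 10 genes passed, Fgf9, against 3.09% of all genes. When the replicate number was added as a block, 4 of the 10 passed (Fgf4 and Fgfr4 higher, Fgf9 and Fgfr2 lower), against 19.9% of all genes, and DESeq2 with the block called 4, against 22.6%. The libraries of both groups did not overlap for Fgf4 and Fgf17, which were higher in LDHi, and for Fgf9, which was lower, where 9.67% of all genes showed no overlap in either direction.

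Fgf9, which in the mouse eye is made by the distal optic vesicle and the neural retina (ENSMUSG00000021974; chromosome 14, 58070547 to 58112720, plus strand, mm10), was the ligand with the largest change. Its levels were 0.672, 0.237, 0.645 and 0.537 CPM in LDHi replicates 1 to 4, against 2.95, 2.18, 0.806 and 1.59 CPM in control replicates 1 to 4. Every LDHi library lay below every control library, and control replicate 3 was the nearest. The log2 fold change was -1.87 (SE 0.45, edgeR adjusted p = 0.0436), and -1.93 with the block (SE 0.43, edgeR adjusted p = 0.0116). These levels rest on 11 to 28 counts per LDHi library and 21 to 144 per control library, so the gene was near the lower end of what was measured. Of the 12 fits that each left out a library, 3 kept the call, those without control replicate 3, LDHi+lactate replicate 2 or LDHi+lactate replicate 3 (edgeR adjusted p 0.04 to 0.139 over the 12), and with the block the call was lost without replicate 1 or 2 (up to 0.0751). DESeq2, by which 6.83% of all genes passed, gave an adjusted p of 0.00118.

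Fgf4, the ligand of pluripotent cells (ENSMUSG00000050917; chromosome 7, 144847367 to 144865243, plus strand, mm10), moved the other way. It stood at 15.5, 30.2, 30.2 and 22 CPM in LDHi replicates 1 to 4, against 7.74, 14.9, 11.6 and 13.7 CPM in control replicates 1 to 4. All 4 LDHi libraries lay above all control libraries, and each was higher than the control of its own number (36.5% of all genes moved one way in all 4 replicate numbers) by 0.681 to 1.38 on the log2 scale. The log2 fold change was 1.03 (SE 0.33), which did not pass without the block (edgeR adjusted p = 0.118) and passed with it (1.02, SE 0.20, edgeR adjusted p = 0.00542; DESeq2 without the block, 0.0308). With the block it passed whichever replicate number was left out (edgeR adjusted p 0.00818 to 0.0332), and without the block it passed when LDHi+lactate replicate 2 was left out of the shared estimate of spread (edgeR adjusted p = 0.0449). The exact two-sided permutation p of the 4 against 4 libraries, taken as unpaired, was 0.0286, the smallest possible. Any gene without overlap reaches that value, so it only restates the absence of overlap. With libraries paired by replicate number, the smallest possible exact p is 0.125.

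The level of Fgf4 moved with that of the pluripotency markers from library to library. The 3 libraries with the most Fgf4, LDHi+lactate replicate 2 (33.6 CPM) and LDHi replicates 2 and 3 (30.2 CPM each), were also the 3 with the highest marker sums, at 1120, 972 and 1100 CPM. The lowest of both was control replicate 1, with 7.74 CPM of Fgf4 and a marker sum of 253 CPM. Of the 8 markers, 4 rose in LDHi over control without the block (Klf4, Esrrb, Zfp42 and Nanog), where 3.09% of all genes passed. All 8 rose with it, where 19.9% of all genes passed. Their median log2 fold change was 1.21, or 1.28 with the block, beside 0.01 over all genes. Nanog, a core factor of the pluripotent state, was at 153 ± 44.1 CPM in LDHi and 64.5 ± 20.5 CPM in control (SD, n = 4, log2 fold change 1.24, SE 0.26, edgeR adjusted p = 0.0275). The part of these markers' cells in the level of Fgf4 was not tested.

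**Figure D2:**
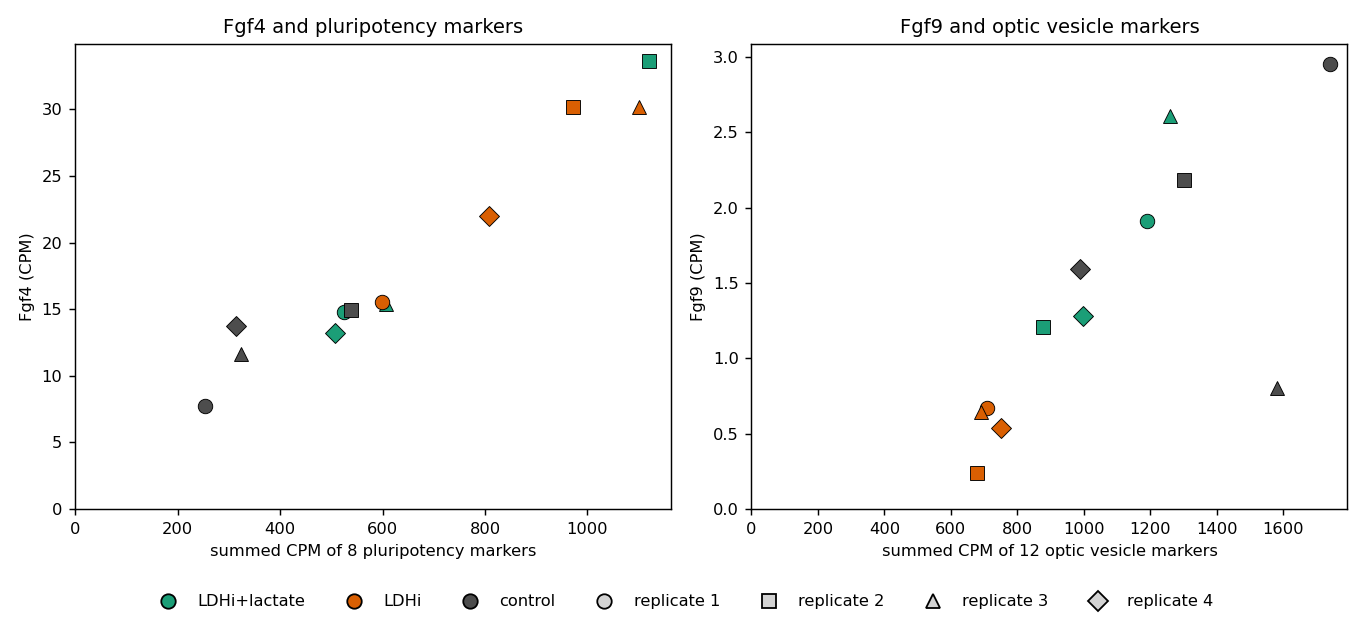
Each point is a library, coloured by group and shaped by replicate number. Left, Fgf4 (CPM) against the summed CPM of 8 pluripotency markers, from control replicate 1 (253 and 7.74) to LDHi+lactate replicate 2 (1120 and 33.6); right, Fgf9 (CPM) against the summed CPM of 12 optic vesicle markers, with the 4 LDHi libraries at the lower left and control replicate 3 (1580 and 0.806) away from the other points.

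Fgf9 was laid beside the optic vesicle list in the same way. The 4 LDHi libraries had the lowest marker sums (679 to 750 CPM) and the lowest Fgf9, and control replicate 1 had the highest of both (1740 CPM and 2.95 CPM). Control replicate 3 departed from this, with a marker sum of 1580 CPM and 0.806 CPM of Fgf9. Of the 12 markers, 5 fell in LDHi below control without the block and 11 with it, and none rose (median log2 fold change -1.62, beside 0.01 over all genes). Of all genes, 3.09% passed without the block and 19.9% with it. Rax, the eye-field homeobox gene, was at 6.6 ± 4.38 CPM in LDHi and 26.6 ± 10.4 CPM in control (SD, n = 4, log2 fold change -2.03, SE 0.42, edgeR adjusted p = 0.0247), and one of its alleles carries the GFP knock-in in all groups. Whether Fgf9 fell with the share of optic vesicle cells was not tested.

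The start sites of these 2 ligands, which moved in opposite directions, differ in base composition. The 100 bases before the RefSeq start of each are shown to let the sequences be compared, 5′ to 3′ (GRCm38.p6, plus strand; Fgf9 at chr14:58072586-58072685, Fgf4 at chr7:144861286-144861385), with CpG dinucleotides in capitals; neither stretch overlaps an annotated exon.
Fgf9: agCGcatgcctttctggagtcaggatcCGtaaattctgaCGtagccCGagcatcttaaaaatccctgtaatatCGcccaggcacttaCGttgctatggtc
Fgf4: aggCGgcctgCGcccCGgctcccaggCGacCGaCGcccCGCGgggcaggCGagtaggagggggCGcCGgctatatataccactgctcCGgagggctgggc
Over 250 bases before the start, Fgf9 had 44.8% G+C and 11 CpG and Fgf4 71.2% G+C and 21 CpG, where the median of 32851 RefSeq promoters of this length was 52.4% G+C (quartiles 45.2% and 61.2%) and 6 CpG (quartiles 2 and 16). The Fgf4 window held 2 GC boxes (GGGCGG, either strand; in 32.7% of the promoters) and 1 CCAAT box (CCAAT, either strand; in 33.8%), none of them in the bases shown, and the Fgf9 window held neither. Of the 10 genes, 6 had an entry in this promoter table.

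Fgf4 lies in a cluster with 2 further ligands on the plus strand of chromosome 7 (mm10), between Ano1, a chloride channel gene, and Ccnd1, which encodes cyclin D1. Fgf3 (144838083 to 144844436) ends 2930 bases before the annotated span of Fgf4, which begins at 144847367. Fgf15 (144896531 to 144900953) begins 31287 bases after the end of that span. The RefSeq start of Fgf4 used above lies inside the span, just past 144861385, so the distance from Fgf3 depends on the transcript model. Fgf3, a ligand of otic and hindbrain development, was at 3.3 ± 1.16 CPM in LDHi and 2.96 ± 0.867 CPM in control (SD, n = 4), with a log2 fold change of 0.15 (SE 0.34, edgeR adjusted p = 0.903) and 2 of 4 replicates higher. Fgf15, the mouse counterpart of human FGF19 and a forebrain and midbrain ligand, was the most abundant of the 6 ligands. It stood at 79.7, 55.8, 54.3 and 38.5 CPM in LDHi replicates 1 to 4, against 36.8, 50.7, 15.2 and 50.7 CPM in control replicates 1 to 4. Its libraries overlapped, 3 of 4 replicates were higher in LDHi, and the log2 fold change of 0.57 (SE 0.33, edgeR adjusted p = 0.438) did not pass with or without the block. Of the neighbours, none of 6 tested genes around the cluster passed in either fit, with Ano1 at 24.6 ± 7.23 CPM in LDHi and 15 ± 4.19 CPM in control and Ccnd1 at 246 ± 77.8 CPM in LDHi and 208 ± 58.1 CPM in control (SD, n = 4). The gene directly after Fgf15, LTO1, was not among those 6. It begins 14146 bases after Fgf15 and held 10529 counts over the libraries, and its change was not examined. Fgf15 overlaps the antisense gene Gm26793 over 761 exonic bases. That gene held 855 counts in all against 20881 for Fgf15, and since no source used here says whether strand was used in counting, reads from the shared bases cannot be told apart.

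Fgf8, the ligand of the anterior neural ridge and the midbrain-hindbrain boundary, was at 6.61 ± 1.54 CPM in LDHi and 4.91 ± 1.63 CPM in control (SD, n = 4, log2 fold change 0.43, SE 0.39, edgeR adjusted p = 0.691). Fgf17, a ligand of the same subfamily, was at 2.64, 2.22, 1.29 and 1.46 CPM in LDHi replicates 1 to 4, against 0.778, 1.15, 0.384 and 1.12 CPM in control replicates 1 to 4. Its libraries did not overlap, which fixes the unpaired two-sided exact permutation p at 0.0286. The log2 fold change of 1.15 had a standard error of 0.74 and did not pass in either fit (edgeR adjusted p = 0.514, and 0.143 with the block). Markers of the tissues that make these 2 ligands gave no single direction. Of 8 midbrain-hindbrain boundary markers, 1 rose without the block (Pax5). With it 4 rose (Pax5, En1, En2 and Sp5) and 2 fell (Wnt1 and Lmx1b), En1 and Lmx1b being named after their values were seen. Of 9 anterior neural ridge and telencephalon markers none passed without the block and 1 rose with it (Dmrta2). Of all genes, 3.09% passed without the block and 19.9% with it.

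Among the receptors, Fgfr2 and Fgfr4 differed from control in opposite directions. Fgfr2, a receptor of the optic vesicle and the lens (ENSMUSG00000030849; chromosome 7, minus strand, mm10), was at 93.0, 74.9, 89.7 and 117 CPM in LDHi replicates 1 to 4, against 138, 86.8, 224 and 191 CPM in control replicates 1 to 4. Every LDHi library lay below the control of its own number, by 0.213 to 1.32 on the log2 scale, and the groups overlapped only through control replicate 2. The log2 fold change was -0.77 (SE 0.28, edgeR adjusted p = 0.173), and it passed with the block at -0.69 (SE 0.13, edgeR adjusted p = 0.0054). With the block it passed whichever replicate number was left out (up to 0.0328), and without the block it passed when control replicate 2 was left out (edgeR adjusted p = 0.0389). The annotated span of Fgfr2, 130162451 to 133123350, takes in other genes through long transcript models, and its exons share 314 bases with those of Ctbp2, so the split of reads between the pair is uncertain. Markers of mesenchyme and surface ectoderm, tissues around the optic vesicle, moved in both directions. Of the 10 genes of that list, 3 fell in LDHi below control without the block (Twist1, Foxc1 and Col1a1), where 3.09% of all genes passed. With the block 1 rose and 5 fell, where 19.9% of all genes passed. The median log2 fold change was -1.03, or -0.92 with the block. Named after their values were seen, Epcam was the gene that rose (0.71 with the block, SE 0.12, edgeR adjusted p = 0.00273), and the keratin genes Krt8 and Krt18 passed in neither fit. Col1a1 ran from 1.65 to 61.5 CPM in control libraries. The 10 genes summed to 245 to 360 CPM in LDHi+lactate, 205 to 296 CPM in LDHi and 251 to 566 CPM in control, and none was at or under the floor throughout a group. Their part in the level of Fgfr2 was not tested.

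Fgfr4, a receptor found in early embryonic and endodermal tissues (ENSMUSG00000005320; chromosome 13, 55152640 to 55168759, plus strand, mm10), was at 11.9, 15.5, 11.9 and 6.49 CPM in LDHi replicates 1 to 4, against 7.58, 10.1, 6.18 and 6.27 CPM in control replicates 1 to 4. Each LDHi library exceeded the control of its number, by 0.049 to 0.936 on the log2 scale, with replicate 4 almost level. The log2 fold change of 0.60 (SE 0.29, edgeR adjusted p = 0.335) passed only with the block (0.56, SE 0.15, edgeR adjusted p = 0.0275), and that call was lost without replicate 1, 2 or 3 (up to 0.135). Of 7 tested genes of the primitive streak and mesoderm list, none passed without the block. With it 3 rose, against 19.9% of all genes called: Mixl1, Sox17 and, named after its values were seen, Foxa2 (median log2 fold change 0.55, or 0.54 with the block). Mixl1 was near the lower end of what was measured, at 0.499 to 2.49 CPM in LDHi libraries and 0.0 to 0.283 CPM in control libraries. The 9 genes of the list summed to 60.0 to 131 CPM in LDHi+lactate, 69.9 to 154 CPM in LDHi and 42.2 to 88.7 CPM in control, with Msgn1 at or under the floor in LDHi+lactate and control. Their part in the level of Fgfr4 was not tested.

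Fgfr1, the main receptor of the early neural plate, was the steadiest of the 10 genes. It was at 257 ± 19.0 CPM in LDHi and 257 ± 32.7 CPM in control (SD, n = 4), with a log2 fold change of -0.00 (SE 0.09, edgeR adjusted p = 0.993). Fgfr3, a receptor of the ventricular zone, varied most among the receptors, at 12.8 to 62.7 CPM in LDHi libraries and 19.2 to 50.6 CPM in control libraries. Its log2 fold change of 0.19 (SE 0.46, edgeR adjusted p = 0.912) joined opposite directions: both set 1 replicates were higher in LDHi and both set 2 replicates lower. It shares 998 exonic bases with G630022F23Rik on the other strand, which held 185 counts against 13941.

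**Figure D3:**
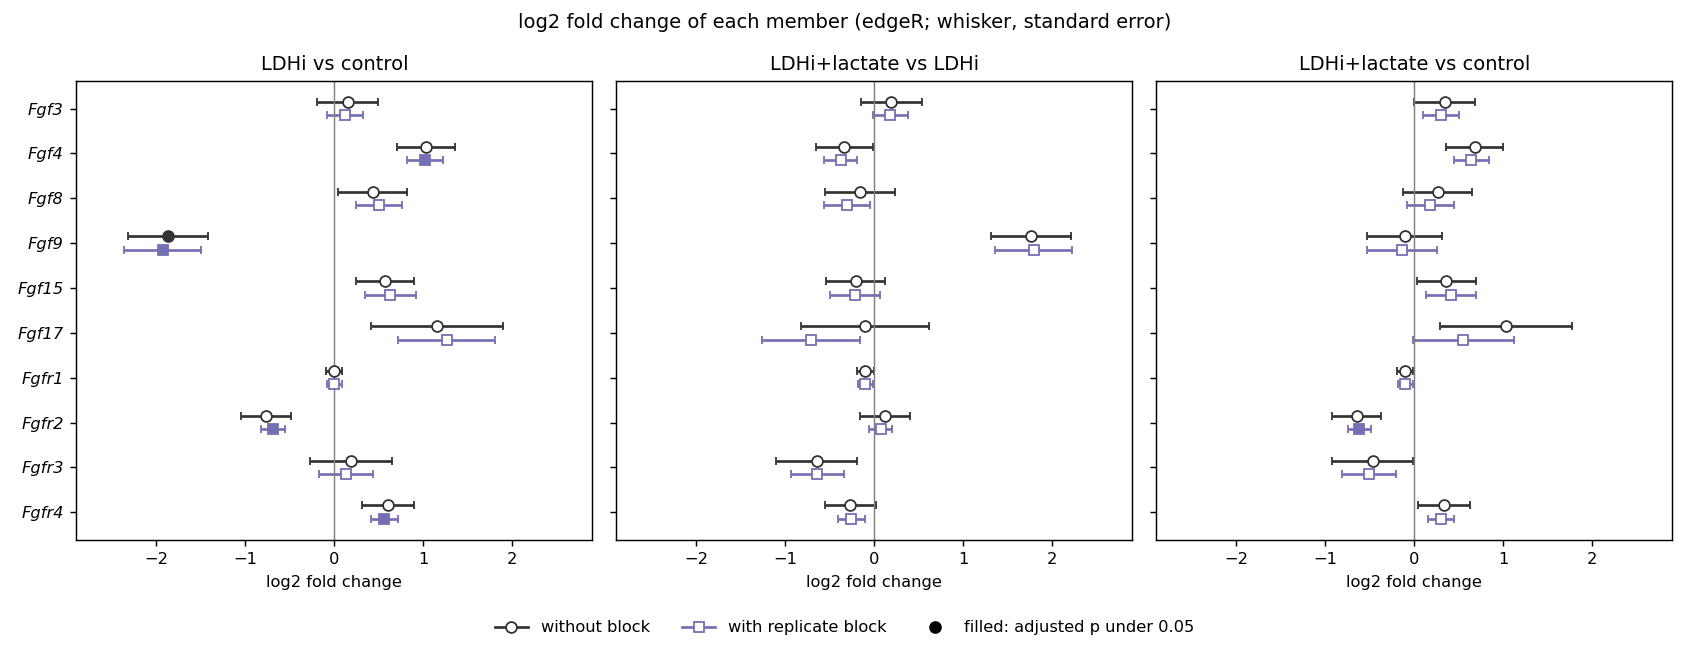
log2 fold change (horizontal axis) with its standard error for the 10 genes in LDHi over control, LDHi+lactate over LDHi and LDHi+lactate over control, by edgeR without (circles) and with the replicate block (squares); filled symbols passed an adjusted p under 0.05. Fgf9 falls to the left in the first panel (-1.87) and to the right in the second (1.76), and Fgfr2 lies to the left in both outer panels (-0.77 and -0.65).

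The second comparison asked what lactate changed in organoids that had the inhibitor. Of the 10 genes, none passed with edgeR, either without the block, where 0.0% of all genes passed, or with it, where 0.638% did; at an unadjusted p under 0.05, 1 gene was reached in each (Fgf9). DESeq2, by which 0.314% of all genes passed, called Fgf9. Fgf9 stood at 1.91, 1.21, 2.61 and 1.28 CPM in LDHi+lactate replicates 1 to 4, against 0.672, 0.237, 0.645 and 0.537 CPM in LDHi replicates 1 to 4. Each library was higher with lactate, by 1.17 to 2.11 on the log2 scale, and the groups did not overlap, where 2.1% of all genes showed no overlap and 21.8% moved one way in all 4 replicate numbers. The log2 fold change was 1.76 (SE 0.45, edgeR adjusted p = 0.659), 1.79 with the block (SE 0.43, edgeR adjusted p = 0.118), and it passed by DESeq2 (adjusted p = 0.0339, and 0.00483 with the block, a fit in which 2.88% of all genes passed). Both comparisons of Fgf9 use the same 4 LDHi libraries.

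The other genes called in LDHi over control with the block, Fgf4, Fgfr2 and Fgfr4, did not pass under lactate. Fgf4 was at 14.8, 33.6, 15.4 and 13.2 CPM in LDHi+lactate replicates 1 to 4, with replicate 2 far above the others, against the LDHi levels of 15.5 to 30.2 CPM. It was lower with lactate in 3 of 4 replicates, and the log2 fold change was -0.34 (SE 0.32, edgeR adjusted p = 1, and 0.499 with the block). Fgfr2 was at 94.8, 63.7, 130 and 119 CPM in LDHi+lactate replicates 1 to 4, within or close to the LDHi range of 74.9 to 117 CPM (log2 fold change 0.12, SE 0.28, edgeR adjusted p = 1). Fgfr4 was lower with lactate in all 4 replicates, at 9.63, 11.8, 10.9 and 5.54 CPM in LDHi+lactate replicates 1 to 4, by 0.122 to 0.385 on the log2 scale, and it did not pass (log2 fold change -0.27, SE 0.29, edgeR adjusted p = 1, and 0.577 with the block). Fgf17 showed the widest spread of any gene in a group, from 0.24 to 5.32 CPM in LDHi+lactate, a 22.1-fold range set by replicate 2.

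Set against control, which shares its libraries with the first comparison, LDHi+lactate organoids had a mean of Fgf9 within the spread of control and a lower Fgfr2. Fgf9 was at 1.75 ± 0.649 CPM in LDHi+lactate and 1.88 ± 0.907 CPM in control (SD, n = 4, log2 fold change -0.11, SE 0.42, edgeR adjusted p = 0.962). That mean joined opposite directions. Fgf9 was higher than in the control of the same number in 1 of 4 replicates, and the paired log2 differences ran from -0.813 to 1.63. Its log2 fold change was -0.71 in set 1 alone and 0.68 in set 2 alone. Fgfr2 was at 102 ± 29.4 CPM in LDHi+lactate and 160 ± 60.4 CPM in control (SD, n = 4). It was lower in 4 of 4 replicates, where 35.6% of all genes moved one way, by 0.446 to 0.789 on the log2 scale, with a log2 fold change of -0.65 (SE 0.28, edgeR adjusted p = 0.502) and of -0.62 with the block (SE 0.13, edgeR adjusted p = 0.0238), a call that was lost without replicate 1 or 4 (up to 0.106). Fgf4 was at 19.3 ± 9.6 CPM in LDHi+lactate and 12.0 ± 3.15 CPM in control (SD, n = 4, log2 fold change 0.68, SE 0.32, edgeR adjusted p = 0.554, and 0.0693 with the block). By DESeq2 its adjusted p was 0.425 without the block and 0.0114 with it, and that of Fgfr2 was 0.339 without the block and 0.000133 with it, so that DESeq2 with the block called 2 of the 10 genes, against 15.4% of all genes. By edgeR with the block 1 of the 10 genes passed, Fgfr2, against 8.05% of all genes, and without it none did, against 0.0% of all genes, with 1 gene at an unadjusted p under 0.05 by edgeR and 2 by DESeq2, which without the block called none of the 10, against 1.3% of all genes, after adjustment. No gene of the 10 was without overlap, against 4.23% of all genes. Of the 8 pluripotency markers that ran with Fgf4, none passed against control without the block (median log2 fold change 0.97) and 7 were higher with it (0.96). Mesenchyme and surface ectoderm markers had a median log2 fold change of -0.93 here, and by edgeR none was called unless the block was used, when 2 rose and 2 fell.

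Levels of different genes were compared per kilobase of merged exon. In control organoids the order was Fgfr1 (26.1 ± 3.31 CPM per kilobase; SD, n = 4), Fgfr2 (15.5 ± 5.85), Fgf15 (12.5 ± 5.49), Fgfr3 (4.64 ± 2.05), Fgf4 (3.75 ± 0.987), Fgf8 (3.64 ± 1.21), Fgfr4 (2.13 ± 0.519), Fgf3 (1.27 ± 0.373), Fgf17 (0.509 ± 0.213) and Fgf9 (0.404 ± 0.195). Only Fgfr1 and Fgf3 stood above the next gene without overlap of the libraries, and the 7 other neighbouring pairs in the order overlapped. In LDHi the order began with Fgfr1 (26.0 ± 1.92 CPM per kilobase) and Fgf15 (18.7 ± 5.56), with Fgf15 above Fgfr2 (9.07 ± 1.7) in all 4 libraries by this length, and ended with Fgf9 (0.112 ± 0.0429) below Fgf17 without overlap. In LDHi+lactate Fgf15 (16.1 ± 3.5 CPM per kilobase) was likewise above Fgfr2 (9.87 ± 2.85) without overlap. By the longest transcript of each gene, Fgf15 was above Fgfr2 in 3 of 4 libraries of each of these groups, and the levels overlapped. The lengths are those of the annotation and not of the isoforms in use: for Fgfr2 the merged exons span 10328 bases and the longest transcript 4429.

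**Figure D4:**
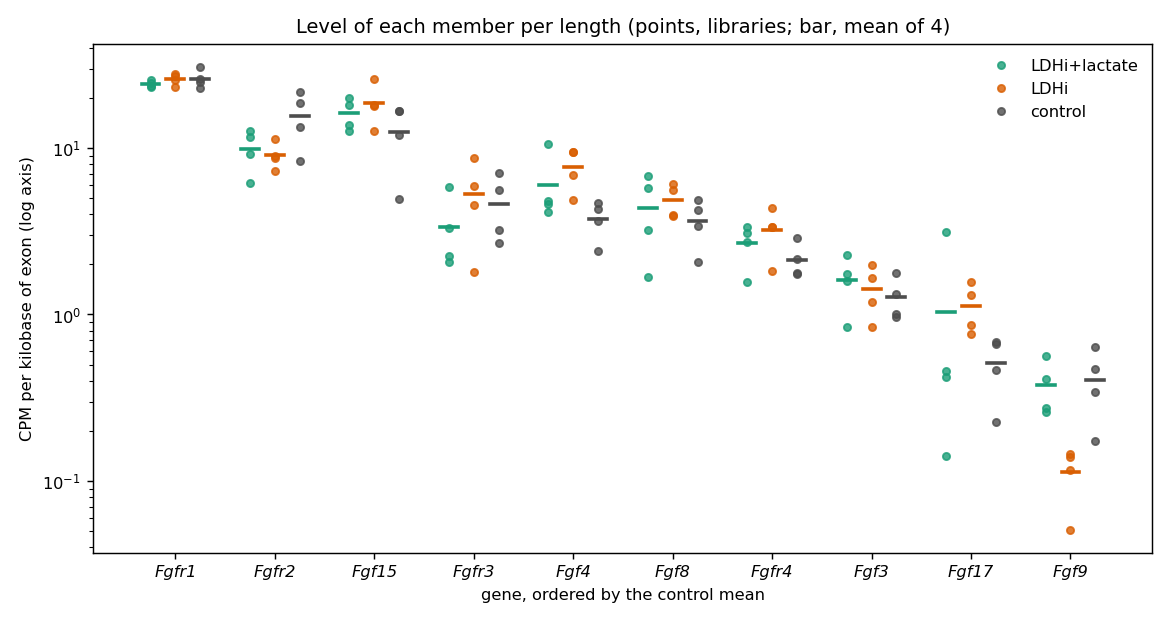
CPM per kilobase of merged exon (log axis) for the 10 genes, ordered by the control mean, with points for the libraries and bars for the means of LDHi+lactate, LDHi and control (n = 4 each). Levels run from those of Fgfr1 (26.1 in control) at the left to those of Fgf9 (0.404 in control, 0.112 in LDHi) at the right.

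Per length, the 6 ligands together amounted to 29.6 ± 5.35 CPM per kilobase in LDHi+lactate, 33.9 ± 4.23 in LDHi and 22.1 ± 7.23 in control (SD, n = 4). Fgf15 made up 55.6 ± 13.5% of that sum in LDHi+lactate, 54.4 ± 10.7% in LDHi and 54.8 ± 12.8% in control, so its share differed by less than the spread. Fgf9 made up 1.38 ± 0.773% in LDHi+lactate, 0.335 ± 0.126% in LDHi and 1.89 ± 1.03% in control. The 4 receptors amounted to 40.2 ± 2.6 CPM per kilobase in LDHi+lactate, 43.5 ± 4.83 in LDHi and 48.3 ± 9.14 in control. Within them Fgfr2 took 24.3 ± 6% in LDHi+lactate, 21 ± 4.49% in LDHi and 31.3 ± 7.66% in control, and Fgfr1 60.6 ± 5.34%, 59.9 ± 2.51% and 54.6 ± 5.41% in the same groups. These shares carry no test.

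Libraries of the 2 sets differed widely: 27.9% of genes passed for set 2 against set 1, in an edgeR fit with group and set. Of the 10 genes, 1 passed by that test, Fgfr2, which was higher in set 2 (89.7 to 224 CPM, median 125) than in set 1 (63.7 to 138 CPM, median 89.9), with a log2 fold change of 0.61 (SE 0.15, edgeR adjusted p = 0.0116). Fgfr4 ran the other way, at a median of 6.38 CPM in set 2 and 11 CPM in set 1 (log2 fold change -0.49, SE 0.19, edgeR adjusted p = 0.0841), and passed by DESeq2 (adjusted p = 0.0487), by which 27.5% of all genes passed. Fgf17 had a median of 0.916 CPM in set 2 and 1.69 CPM in set 1 (log2 fold change -1.25, SE 0.55, edgeR adjusted p = 0.111). All 10 genes overlapped between the sets, where 12.3% of all genes did not. The set cannot be told apart from the depth of the libraries or from the replicate numbers. Each set held only 2 replicate numbers, and libraries of the same number deviated together. These fits took the 6 libraries of a set as independent, so their adjusted p-values can be too small and the shares of genes passing too large.

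Whether the treatment effect differed between the sets was tested by an interaction term, without the replicate block. Each group held only 2 libraries in a set, so a missing call does not show that the effects were alike. None of the 10 genes passed for LDHi over control or for LDHi+lactate over LDHi, by edgeR or by DESeq2, where 0.0% of all genes passed by edgeR in each, and 0.0233% and 0.0% by DESeq2; at an unadjusted p under 0.05, Fgfr1 was reached for LDHi over control. The LDHi effect on Fgf4 was nearly the same in both sets (log2 fold change 1.03 in set 2 and 1.01 in set 1). For Fgfr2 it was -1.02 in set 2 and -0.42 in set 1 (difference -0.58, SE 0.36, edgeR adjusted p = 0.89). For Fgf9 it was -1.03 in set 2 and -2.50 in set 1 (difference 1.48, SE 0.83, edgeR adjusted p = 0.89). For Fgfr3 the directions were opposite, -0.70 in set 2 and 0.83 in set 1 (difference -1.52, SE 0.87, edgeR adjusted p = 0.89), and for Fgfr1 the effects were -0.22 in set 2 and 0.20 in set 1 (difference -0.40, SE 0.14, edgeR adjusted p = 0.89).

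Some target genes of the pathway rose in LDHi. Of 19 feedback and target genes tested, 2 rose in LDHi over control without the block and none fell, where 3.09% of all genes passed (median log2 fold change 0.28 beside 0.01 over all genes). With the block 7 rose and 1 fell, where 19.9% of all genes passed. The 2 that rose without the block were the ETS factors Etv5 and Etv4. Etv5 was at 79.5, 114, 132 and 90.7 CPM in LDHi replicates 1 to 4, against 30.1, 57.4, 37.7 and 44.6 CPM in control replicates 1 to 4 (log2 fold change 1.29, SE 0.25, edgeR adjusted p = 0.0214). Etv4 was at 34.3 ± 7.7 CPM in LDHi and 13.9 ± 4.18 CPM in control (SD, n = 4, log2 fold change 1.30, SE 0.29, edgeR adjusted p = 0.0315). With the block the feedback inhibitors Spry1 (0.96, SE 0.14, edgeR adjusted p = 0.00147) and Spry4 (1.12, SE 0.26, edgeR adjusted p = 0.0138) rose. The gene that fell with the block was Phlda1, which is named here after its values were seen (-0.72, SE 0.17, edgeR adjusted p = 0.0125). Etv4 and Etv5 were highest, at 44.8 and 123 CPM among the LDHi+lactate libraries, in replicate 2, the library with the most Fgf4 and the highest sum of pluripotency markers. Etv4 and Etv5 are also transcribed in embryonic stem cells, and how far their levels follow the share of such cells was not tested.

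**Figure D5:**
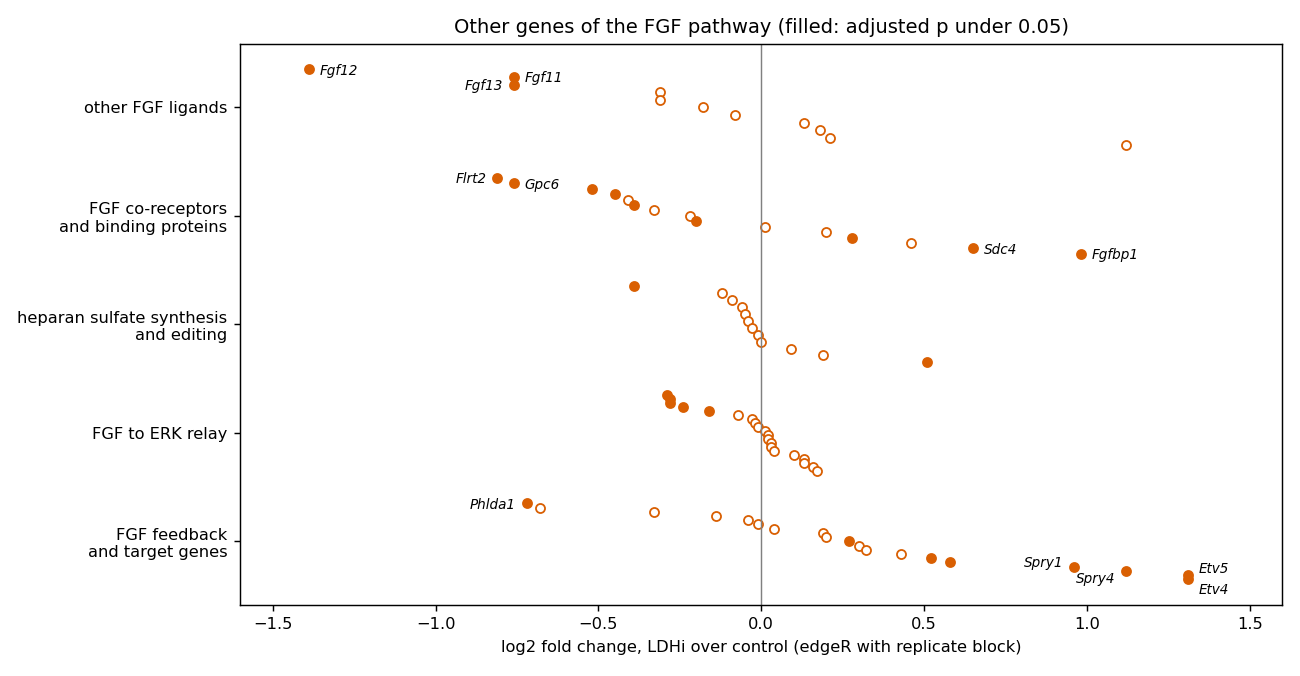
log2 fold change in LDHi over control (edgeR with replicate block) for the other genes of the FGF pathway, by list, with filled points for an adjusted p under 0.05 and names for the filled points farthest from 0. Etv5 and Etv4 lie farthest to the right among the feedback and target genes (1.31 each), Fgf12 farthest to the left among the other ligands (-1.39), and the FGF to ERK relay stays near 0.

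With lactate no feedback or target gene passed in either fit (median log2 fold change -0.06 against LDHi). Of all genes, 0.0% passed without the block and 0.638% with it, so the absence of calls does not show that the list was unchanged. Against control, Etv5 remained higher in LDHi+lactate with the block (81.4 ± 28.4 CPM in LDHi+lactate and 42.4 ± 11.6 CPM in control, SD, n = 4; log2 fold change 0.92, SE 0.14, edgeR adjusted p = 0.00904), and so did Etv4 (1.01, SE 0.20, edgeR adjusted p = 0.0193), Spred2 (0.24, SE 0.06, edgeR adjusted p = 0.0449) and Spry4 (1.05, SE 0.26, edgeR adjusted p = 0.039). These 4 were all that passed of the list with the block, where 8.05% of all genes passed. None passed without the block, where 0.0% of all genes did.

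Among 20 genes of the FGF to ERK relay, none passed without the block in LDHi over control, and with it none rose and 5 fell, against 19.9% of all genes, with log2 fold changes of -0.29 to -0.16. They were the kinase genes Braf and Mapk3, the adaptor gene Shc1, the phospholipase gene Plcg1 and the exchange factor gene Sos2, of which Mapk3 is named after its values were seen. The summed level of the relay was 2420 to 2630 CPM in LDHi+lactate, 2390 to 2540 CPM in LDHi and 2410 to 2630 CPM in control.

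Outside the 6 ligands, 11 of 16 other FGF genes were measurable enough to be tested, and none rose. With the block Fgf13, Fgf12 and Fgf11 fell in LDHi, 3 of the 11, against 19.9% of all genes, and none passed without it. These 3 belong to the intracellular FGFs, which bind sodium channels. The remaining gene of that group, Fgf14, is named after its values were seen and did not pass (log2 fold change 0.04, SE 0.47, edgeR adjusted p = 0.985, and 0.826 with the block). Fgf13 was at 29.2 ± 1.94 CPM in LDHi and 51.3 ± 17.5 CPM in control (SD, n = 4, log2 fold change -0.76 with the block, SE 0.16, edgeR adjusted p = 0.00721; -0.81 without, 0.0597). Fgf18, a ligand of Fgf8's subfamily, was at 3.46 ± 2.55 CPM in LDHi and 1.35 ± 0.528 CPM in control and did not pass (log2 fold change 1.35, SE 0.53, edgeR adjusted p = 0.211). Fgf6 had no more than 2 counts in any library.

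Co-receptors and binding proteins moved in both directions. Of 15 tested, none passed without the block in LDHi over control, and with it 3 rose and 6 fell, where 19.9% of all genes passed (median log2 fold change -0.21 beside 0.01 over all genes). Fgfbp1, a secreted carrier of FGFs, rose (7.01 ± 1.71 CPM in LDHi and 3.57 ± 1.16 CPM in control, SD, n = 4; log2 fold change 0.98 with the block, SE 0.20, edgeR adjusted p = 0.00719), as did the cell-surface proteoglycans Sdc4 and Gpc4, which are named after their values were seen (0.65 and 0.28 with the block). The proteoglycans Gpc6 (-0.76, SE 0.13, edgeR adjusted p = 0.00301) and Sdc2 (-0.52, SE 0.08, edgeR adjusted p = 0.0017) fell with the block. Of 12 genes that make or edit heparan sulfate, 1 rose without the block, where 3.09% of all genes passed. With the block 1 rose and 1 fell, where 19.9% of all genes passed. The gene that rose was Sulf2, an extracellular 6-O-sulfatase that trims heparan sulfate. It was at 497 ± 63.9 CPM in LDHi and 350.0 ± 35.8 CPM in control (SD, n = 4, log2 fold change 0.51, SE 0.12, edgeR adjusted p = 0.0372). Ndst1, which starts sulfation of the chains, was lower with the block (-0.39, SE 0.07, edgeR adjusted p = 0.00438).

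For each of the 4 genes called in LDHi over control, the genes with the nearest profile over the 12 libraries were sought among 14241 genes of sufficient level, by the root mean square difference of centred log2 CPM. For Fgf4 they were Triml1 (0.176), Dgka (0.184) and Castor1 (0.205), where the profile of Fgf4 itself had a root mean square of 0.604. For Fgf9 they were Dkk3 (0.437), Slc27a6 (0.458) and Irgm2 (0.478) beside 0.963 for its own profile, a looser likeness. For Fgfr2 they were Gm16576 (0.131), Tgfb3 (0.158) and Clmn (0.161) beside 0.509, and for Fgfr4 Atp1b1 (0.148), Nagpa (0.206) and Ubald2 (0.209) beside 0.457. These values describe likeness over libraries that share treatments and sets and carry no test.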

How the data were processed

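RNA-seq was done on 12 libraries of day 7 organoids, 4 in each of 3 groups. Per the submitters' processing notes, the tools were cutadapt 1.13, STAR, HTSeq 0.6.1p1 and DESeq2 1.14.1 with build mm10. The deposited values are raw whole-number counts per gene, made by the authors with no normalization; no source used here names the annotation release or the strand setting. The members and the gene lists were chosen with earlier results of these data known.

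Counts were tested in edgeR 4.0.16 (R 4.3.3; quasi-likelihood test, TMM scaling, filterByExpr, which kept 17721 genes) over all 3 groups, with Benjamini-Hochberg adjustment over all genes tested and a threshold of 0.05. CPM used TMM-scaled library sizes, and log2 CPM a prior count of 2. Standard errors were derived from the fold change and the F statistic. Libraries with the same replicate number deviated together from their group means (correlations 0.329 to 0.634 over 12 pairs, against -0.544 to 0.171 over 24 pairs of different number and set and -0.22 to 0.197 over 12 pairs of different number within a set), so the numbers pair the samples, and values from the fit blocked on that number stand next to the unblocked ones where a call changes. Alternatives were DESeq2 1.42.0, other filters and scalings, each set alone, the set as a term and each library left out. DESeq2 with the block was added after seeing the data. On simulated counts for LDHi against control (17414 genes), 67% of genes changed by 1 on the log2 scale and 93% of those changed by 2 were called, with 4 false calls. The simulated libraries shared no deviations by replicate number or set, and the changed genes had a mean above 1 CPM. These values therefore do not describe the blocked fit, genes below that level or libraries that deviate together. No libraries repeated another: within groups the chi-square per degree of freedom was 27.6 to 134.

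Besides the 10 members, named genes were at most 4 per list and comparison, those with the smallest adjusted p, the 3 nearest profiles of each called member, and the neighbours on chromosome 7; exceptions are marked. Gene positions and exon lengths come from GENCODE vM21 (mm10), which matched 54079 of 54232 gene identifiers. Promoter sequences are from RefSeq (GRCm38.p6). Figures were drawn with matplotlib 3.10.9.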

Additional observations from a re-analysis of the deposited data

Results flagged for a closer look

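In 2 of the 30 gene and group combinations of the 10 genes, 1 library lay far from the other 3, where chance alone marks about 1 in 20. Both were in LDHi+lactate replicate 2. Fgf4 was at 33.6 CPM there and at 13.2 to 15.4 CPM in the other LDHi+lactate libraries, a gap of 0.892 of the group's range. Fgf17 was at 5.32 CPM there and at 0.24 to 0.769 CPM in the others, a gap of 0.896 of the range. The same library had the highest sum of pluripotency markers of its group (1120 CPM, against 508 to 606 CPM). The part of that in either value was not tested.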

How the results depend on the processing

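For LDHi over control, the number of the 10 genes called (1) was 2 with DESeq2 (6.83% of all genes), 2 with set as a term (7.83%), 4 with the replicate block (19.9%), 4 with DESeq2 and the block (22.6%), and 0 in set 1 alone (0.0162%), in set 2 alone (0.637%) and with the groups compared only (1.78%), beside 3.09% in the unaltered fit; leaving out a replicate it was 0 to 2, and 2, 3 or 4 with the block. For LDHi+lactate over LDHi (0) it was 1 with DESeq2 (0.314%) and 1 with DESeq2 and the block (2.88%). For LDHi+lactate over control (0) it was 1 with the block (8.05%) and 2 with DESeq2 and the block (15.4%). It stayed 0 whichever library was left out (0.0% of all genes). With the block and leaving out a replicate number, it was 0 or 1 (0.51% to 3.97%). For set 2 over set 1 (1) it was 5 with no filter (14.9% of 34297 genes, against 27.9%), 2 with DESeq2 (27.5%) and 1 to 2 leaving out a replicate, and for the difference of the treatment effect between sets (0) it was 1 with no filter (Fgfr3; 1.66%). In edgeR the block changed no other call of the 10 genes than those given beside the results.

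Directions that turned were of values that passed no test. In set 1 alone, LDHi over control gave log2 fold changes of -0.13 for Fgf3 and 0.20 for Fgfr1, LDHi+lactate over LDHi gave 0.08 for Fgf4, 0.32 for Fgf17 and -0.08 for Fgfr2, and LDHi+lactate over control gave 0.02 for Fgfr1. In set 2 alone, LDHi over control gave -0.70 for Fgfr3, LDHi+lactate over LDHi gave 0.03 for Fgf15, and LDHi+lactate over control gave 0.68 for Fgf9 and -0.67 for Fgf17. Fgfr1 was 0.00 for LDHi over control with the block and -0.00 for set 2 over set 1 with no filter. Leaving out a replicate, LDHi over control ran from -0.05 to 0.35 for Fgf3 (with the block -0.04 to 0.23), -0.07 to 0.08 for Fgfr1 (-0.08 to 0.07, and 0.05 without replicate 3) and -0.18 to 0.47 for Fgfr3 (-0.26 to 0.40). LDHi+lactate over LDHi ran from -0.03 to 0.40 for Fgf3, -0.45 to 0.11 for Fgf8, -1.72 to 0.24 for Fgf17 and -0.02 to 0.29 for Fgfr2 (with the block -0.06 to 0.18). LDHi+lactate over control ran from -0.03 to 0.53 for Fgf8 (with the block -0.01 to 0.30), -0.37 to 0.19 for Fgf9 (-0.62 to 0.16, and 0.05 without replicate 1) and -0.58 to 1.38 for Fgf17 (-0.42 to 0.99). Set 2 over set 1 ran from -0.08 to 0.27 for Fgf3, -0.28 to 0.12 for Fgf4, -0.39 to 0.09 for Fgf9 and -0.02 to 0.07 for Fgfr1. The causes were not tested. Depth limits Fgf9 and Fgf17 most, with as few as 11 and 7 counts in a library.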
